A study of Oryza sativa with 12 samples.

Results

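The chilling response of rice shoots was compared between the last hours of darkness and the last hours of light, as the difference between the responses at the 2 times. All 12 libraries of the series entered it, and of 40424 identifiers in the deposited count table the 24700 that passed a low-count filter were tested. The plants were seedlings of the indica rice cultivar 93-11 at the 3-leaf stage, about 10 days old, raised in 12 h light and 12 h dark at 28 °C. The titles of all samples carry the label WT (wild type). CT24 seedlings spent ZT20 to ZT24 at 13 °C and NT24 seedlings spent the same hours at 28 °C, where ZT counts hours from lights-on, so ZT24 is the end of the dark period. CT12 seedlings spent ZT8 to ZT12 at 13 °C and NT12 seedlings spent those hours at 28 °C, so ZT12 is the end of the light period. Each group had 3 libraries, each from the pooled above-ground parts of 5 plants. The labels call them biological repeats and do not say whether repeats shared a pot or chamber run.

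The circadian clock lets plants answer the same stimulus differently at different hours, which is called gating. In Arabidopsis, the morning clock proteins CCA1 and LHY and the later pseudo-response regulators act on the promoters of the CBF genes, whose products switch on many cold-responsive genes, and cold induces CBF genes to an extent that depends on the hour. In rice, related DREB factors are induced by cold. In statistical terms, gating would appear as an interaction between temperature and time: the log2 fold change CT24/NT24 minus the log2 fold change CT12/NT12. The treatment that ended at ZT12 fell in the light and the one that ended at ZT24 fell in the dark. A called interaction therefore cannot tell the hour of the clock apart from light or darkness during the treatment. A positive value means that the response was more positive at ZT24, either because chilling raised the transcript more there or because it lowered it less.

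The files do not pair identifiers with gene names, and 0 of 40424 identifiers matched the reference gene table. The 20 clock and cold genes of interest, and markers of leaf tissue, could therefore not be looked up, and identifiers are given as deposited without a function. In a bulk sample, a lower level can mean fewer cells of a type or less RNA per cell, and these cannot be told apart. Total counts lay between 42966604 and 52762123 per library. Levels are given as CPM, the counts scaled to a common library size, after trimmed-mean-of-M-values (TMM) scaling, whose factors averaged 0.974 ± 0.0192 in CT24, 0.987 ± 0.0474 in NT24, 0.787 ± 0.0769 in CT12 and 1.33 ± 0.0208 in NT12 (SD, n = 3 each). Because these factors differ most between CT12 and NT12, the scaling bears directly on the interaction, and its effect is stated beside the counts. CT12 replicate 2 lay farthest from its group mean, with a root-mean-square deviation of 0.702 on the log2 CPM scale, against 0.378 to 0.591 in the other 11 libraries.

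For 5486 of the 24700 genes, 22.2%, the response to chilling differed between the times (quasi-likelihood F test of edgeR, with a gene called where its Benjamini-Hochberg adjusted p over all genes tested was below 0.05). Of the genes tested, 9.24% had a more positive response at ZT24 (2283 genes) and 13% a more negative one (3203 genes). The simple responses were each called for more genes: 42.1% of those tested changed with chilling at ZT24 and 44.9% at ZT12. Under total-count scaling the interaction calls became 9279 more positive and 1312 more negative, and under upper-quartile scaling 3283 and 2446. These scalings moved the median interaction of all genes from -0.01 to 0.73 and to 0.18, so the balance of the directions depended on the scaling. Leaving out CT12 replicate 2 raised the number of calls to 7124, and leaving out any other single library lowered it, to between 4260 and 4888.

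**Figure D1:**
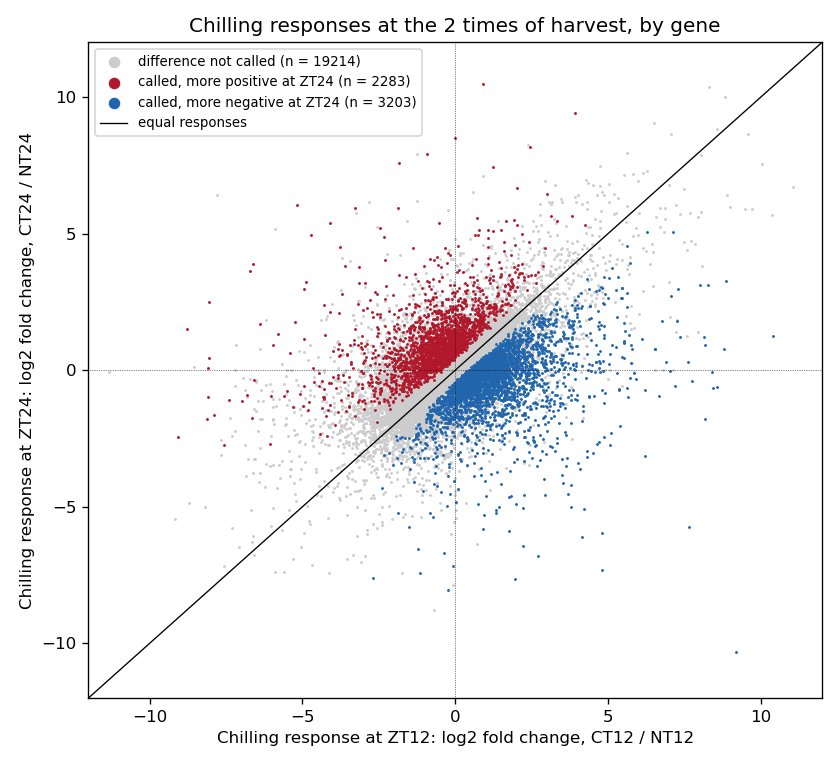
Each point is a gene; the horizontal axis is its log2 fold change with chilling at ZT12 and the vertical axis that at ZT24, with the diagonal marking equal responses. The 2283 genes called more positive at ZT24 lie above the diagonal and the 3203 called more negative lie below it.

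The differences in response were mostly moderate in size. The median absolute difference of the 5486 called genes was 1.33 on the log2 scale, and 3733 of them (68%) had a fitted difference of at least 2-fold. At least 8-fold differences were fitted for 241 more positive and 419 more negative genes, and at least 32-fold differences for 59 and 122. A stricter question is whether the difference exceeded 2-fold beyond its error. By edgeR's glmTreat test against a 2-fold bound this held for 1353 genes, 5.48% of those tested, of which 422 were more positive and 931 more negative at ZT24. With limma's treat test the count was 782, of which 162 were more positive and 620 more negative. Under total-count scaling it was 2332, of which 1870 were more positive and 462 more negative. Under all 4 of the TMM, RLE, upper-quartile and total-count scalings, 420 of the 422 and 461 of the 931 passed that test in the same direction.

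The individual libraries separated the responses for a similar number of genes. With 3 chilled and 3 normal libraries at each time there are 9 chilled-minus-normal differences per gene and time. For 6309 genes, 25.5% of those tested, all 9 differences at ZT24 lay beyond all 9 at ZT12, above them for 2772 genes and below them for 3537. Of the 5486 called genes, 5108 were among these. The separation and the calls used the same libraries under the same scaling, which favours this overlap by construction. Of the called genes, 134 (2.44%) had a group with at most 3 counts over its 3 libraries, against 3.2% of the genes tested. Fitted sizes for those genes depend on very few reads.

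A gene without a called difference was not thereby shown to respond alike. For 7353 genes, 29.8% of those tested, the 95% interval of the interaction lay wholly within 2-fold in either direction, which bounds the difference. Of these, 476 were also called, with a small but measurable difference, and 6877 were not. For the remaining 12337 genes (49.9%) the difference was neither called nor bounded. Under total-count scaling 4251 genes were bounded, and 2178 of the 7353 were bounded under all 4 scalings.

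What could be resolved depended on how many counts a gene had. The median standard error (SE) of the interaction was 1.22 on the log2 scale for the 4689 genes averaging under 1 CPM, 0.442 between 1 and 10 CPM, 0.22 between 10 and 100 CPM and 0.223 over 100 CPM. Under 1 CPM no gene was bounded within 2-fold and 6.25% were called, so 93.8% stayed undecided. Between 10 and 100 CPM, 28.6% were called and 52.7% were bounded. Over 100 CPM, with a like SE, 43.7% of the 1901 genes were called, 38.3% were bounded and 21.5% were neither. Under TMM scaling, the sign of the interaction also went with the level. Its median was 0.28 under 1 CPM, 0.17 between 1 and 10, -0.08 between 10 and 100 and -0.39 over 100 CPM. Calls were 172 more positive and 121 more negative under 1 CPM, and 166 and 665 over 100 CPM. The cause of this shift with level was not tested. Total-count scaling moved the median interaction of all genes to 0.73, farther than any of these medians lay from 0. The signs at each level therefore hold for TMM, and the classes were not computed under other scalings. Differences beyond 2-fold passed the glmTreat test for 16.3% of genes over 100 CPM and for 1.68% under 1 CPM. CPM is not divided by transcript length, so these classes rank genes by counts and not by molecules.

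**Figure D2:**
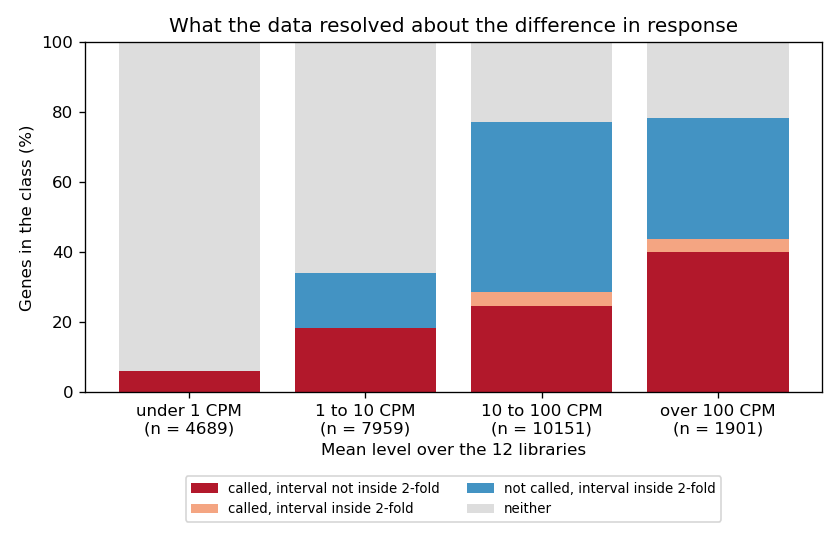
Bars show, for 4 classes of mean level over the 12 libraries in CPM, the percentage of genes whose difference in response was called, bounded within 2-fold by its 95% interval, both or neither. The undecided share is 93.8% under 1 CPM and 21.5% over 100 CPM.

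Some genes responded to chilling in opposite directions, with a call at each time. Chilling raised 298 genes at ZT24 and lowered them at ZT12, with median log2 changes of 0.94 at ZT24 and -0.86 at ZT12. Another 646 fell at ZT24 and rose at ZT12, with medians of -0.88 and 1.17. Of the 646, 441 (68.3%) exceeded a 2-fold difference by the glmTreat test, as did 165 (55.4%) of the 298, against 24.7% of all called genes. Opposite directions favour a large difference by construction. The median level of the 646 genes was 36.9 CPM in CT24, 65.3 in NT24, 45.3 in CT12 and 20.6 in NT12, so the 28 °C groups lay farther apart than the chilled ones. Under all 4 scalings 244 of the 298 and 295 of the 646 kept both calls. Under total counts the classes held 1602 and 315 genes.

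Among genes that chilling moved in the same direction at both times, many had responses bounded within 2-fold of each other. Of the 3239 genes that rose at both, with median log2 changes of 1.10 at ZT24 and 1.25 at ZT12, 1586 (49%) were bounded and 875 (27%) had a called difference. Of the 2430 that fell at both, with medians of -1.24 and -1.26, 1072 (44.1%) were bounded and 251 (10.3%) had a called difference. Upper-quartile scaling gave 1056 bounded of 2327 that rose at both and 1742 bounded of 3651 that fell at both. Total counts gave 586 bounded of 1605 that rose at both, with 3892 that fell at both. Where genes that rose at both differed, 292 rose more at ZT24, with medians of 2.02 at ZT24 and 0.88 at ZT12, and 583 rose more at ZT12, with medians of 0.90 at ZT24 and 2.10 at ZT12. For falls, 143 genes fell more at ZT24, with medians of -1.83 and -0.81, and 108 fell more at ZT12, with medians of -0.77 and -1.97.

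Genes called in the interaction and at one time could be split by whether the other response was bounded. Of 858 genes that rose at ZT24 and were not called at ZT12, 652 (76%) had a ZT12 response bounded within 2-fold, and of 639 that fell at ZT24 and were not called at ZT12, 465 (72.8%) did. Of 1143 genes that rose at ZT12 and were not called at ZT24, 950 (83.1%) had a bounded ZT24 response, and of 663 that fell at ZT12 and were not called at ZT24, 404 (60.9%) did. The ZT24 response was bounded for 37% of all genes tested and the ZT12 response for 35.2%. Choosing genes without a call at that time, and with a called interaction, favours a bounded response by construction. For the other genes of these classes, a change of 2-fold or more at the time without a call lay inside the 95% interval. The counts of 1143 and 663 became 748 and 1240 under upper-quartile scaling and 374 and 4643 under total counts, and the 663 became 1022 without CT12 replicate 2. Total counts also turned the 858 and 639 into 1364 and 310.

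**Figure D3:**
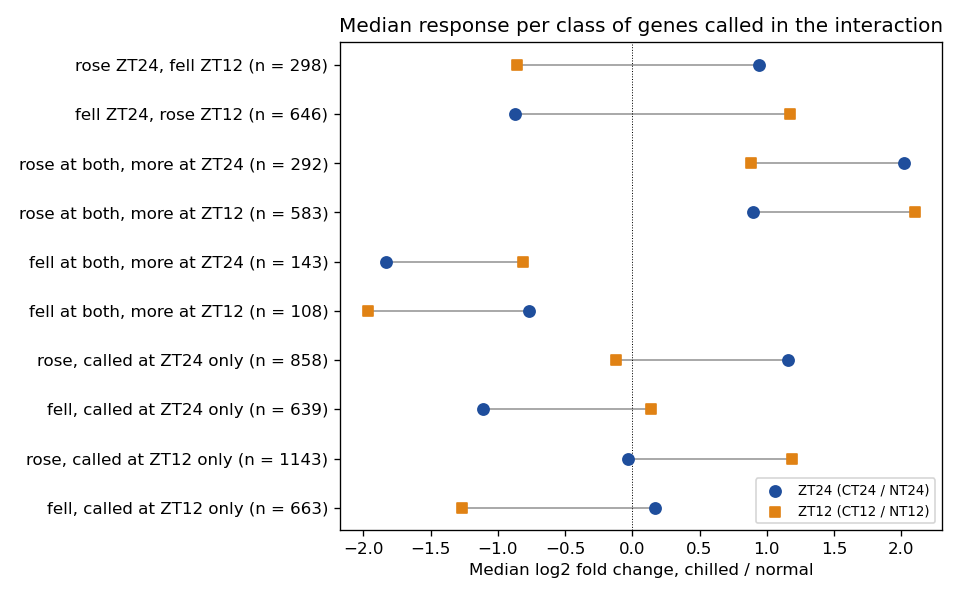
Median log2 fold change with chilling at ZT24 (circles) and at ZT12 (squares) for 10 classes of genes called in the interaction, with the number of genes in each. The 646 genes that fell at ZT24 and rose at ZT12 have medians of -0.88 and 1.17, and in the classes called at one time the other median lies between -0.12 and 0.17.

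The same interaction can be read as the change that chilling made to the difference between ZT24 and ZT12. That difference was called for 42.1% of genes tested at 13 °C (CT24 against CT12) and for 44.1% at 28 °C (NT24 against NT12). These comparisons share no library with each other, but both share libraries with the interaction, so their values are set side by side as a description. The 2283 genes with a more positive response at ZT24 had a median log2 ZT24/ZT12 difference of 0.37 at 13 °C and -0.94 at 28 °C. The 3203 genes with a more negative response had medians of -0.45 at 13 °C and 0.79 at 28 °C. Over all genes tested these medians were 0.03 and 0.04.

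Part of the interaction lay in genes whose difference between the times was called at a single temperature. Of the 5486 genes, 1369 (25%) differed between the times at 13 °C and were not called at 28 °C, and 1671 (30.5%) differed at 28 °C and were not called at 13 °C. A further 1724 (31.4%) differed in the same direction at both temperatures and 623 (11.4%) in opposite directions, while 99 were called at neither. Over all genes tested, 14.6% differed at 13 °C without a call at 28 °C, 16.6% the reverse, 25% in the same direction at both and 2.52% in opposite directions. Calls in opposite directions favour a called interaction by construction, and all 623 such genes among those tested had one. The absolute difference between the times was smaller at 13 °C than at 28 °C for 3186 of the 5486 genes (58.1%), against 52% of all genes tested. Under total counts the classes of 1369 and 1671 genes held 2958 and 3590. Without CT12 replicate 2 they held 2026 and 1999, so their order turned round, and the share with a smaller difference at 13 °C was 50.7% of called genes, against 47.1% of all tested.

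The order of the 4 group means shows where the extremes lay. Of the 2283 genes with a more positive response at ZT24, the lowest mean was in NT24 for 1307 (57.2%) and in CT12 for 854 (37.4%), and the highest was in NT12 for 1019 (44.6%) and in CT24 for 806 (35.3%). Of the 3203 with a more negative response, the lowest mean was in NT12 for 1848 (57.7%) and in CT24 for 867 (27.1%), and the highest was in CT12 for 1502 (46.9%) and in NT24 for 1317 (41.1%). The sign of the interaction favours such orders by construction. What it does not fix is the split within each pair, and for both signs the lowest mean lay more often in a 28 °C group. Over all genes tested, the lowest mean was in CT24 for 19.9%, in NT24 for 26.2%, in CT12 for 30.3% and in NT12 for 23.6%. Under total counts, the lowest mean of more positive genes was in NT24 for 3493 and in CT12 for 5182, so this order turned round for that sign, while more negative genes had 678 in NT12 and 420 in CT24. The highest mean of more negative genes was in CT12 for 1055 and in NT24 for 1115 under upper-quartile scaling, and for 518 and 619 under total counts, so that order turned round too. Without CT12 replicate 2 the order of the lowest means also turned round for more positive genes, with 1401 lowest in NT24 and 1523 in CT12.

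**Figure D4:**
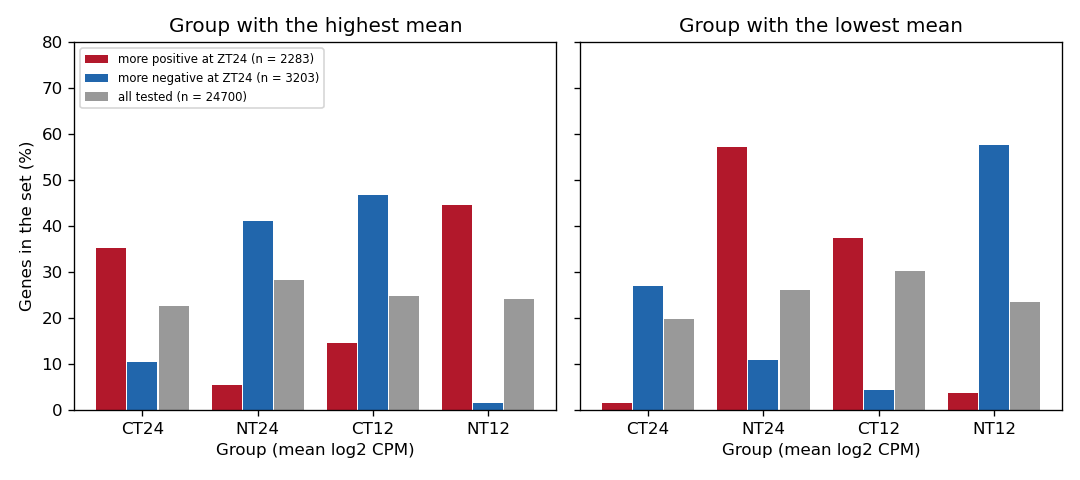
Bars give the percentage of genes whose highest (left) or lowest (right) group mean of log2 CPM lay in each of the 4 groups, for genes with a more positive response at ZT24, a more negative one, and all genes tested. NT24 holds the lowest mean for 57.2% of the more positive genes and NT12 for 57.7% of the more negative ones.

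In some called genes a single group stood clear of the other 3. All its libraries lay at least 2-fold above all 9 others for CT24 in 69 called genes (1.26%), for NT24 in 164 (2.99%), for CT12 in 387 (7.05%) and for NT12 in 62 (1.13%). They lay at least 2-fold below all others for CT24 in 73 (1.33%), for NT24 in 323 (5.89%), for CT12 in 120 (2.19%) and for NT12 in 414 (7.55%). Among all genes tested, the shares above the others were 0.51% for CT24, 1.32% for NT24, 2.55% for CT12 and 0.579% for NT12. The shares below the others were 0.34% for CT24, 1.85% for NT24, 0.794% for CT12 and 1.85% for NT12. A group so far from the rest favours a called interaction by construction.

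The scale on which a difference is taken mattered for a minority. On the linear CPM scale, the difference CT24 minus NT24 less the difference CT12 minus NT12 had the opposite sign to the log2 interaction for 247 of the 5486 genes (4.5%). Over all 24700 genes tested the signs differed for 3042 (12.3%), a larger share than among called genes. Of the 247, 182 rose at both times. Pooled over both orders of response, their median change was 29.6 CPM at ZT24 and 37.5 CPM at ZT12, and their median log2 change was 1.90 and 1.55. Of the 292 genes that rose at both and more at ZT24 on the log2 scale, 111 (38%) gained fewer CPM at ZT24 than at ZT12. The reverse held for 71 (12.2%) of the 583 that rose more at ZT12 on the log2 scale, which gained more CPM at ZT24. Among the 1353 genes beyond 2-fold the signs differed for 47 (3.47%).

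Identifiers numbered like Novel00601, whose meaning the sources used here do not give, were called in 201 of 1350 cases (14.9%), against 5285 of 23350 (22.6%) for the others. Their median of mean levels was also lower, at 1.26 CPM against 10.3 CPM, and the part of depth in this difference was not tested. The share beyond 2-fold was 5.04% of the Novel00601-type and 5.5% of the other identifiers.

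Single genes are named by a rule of size, at most 2 in each direction per comparison, among the 12202 genes averaging at least 5 CPM in every group. That floor leaves out genes near 0 in a group, whose fold changes are poorly measured. The genes named are the extremes of their lists. For the interaction, 1056 more positive and 2148 more negative genes were eligible.

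The largest positive difference was that of OsR498G0203308700.01. It had 342, 328 and 379 CPM in CT24, 53.9, 25.8 and 34.1 CPM in NT24, 82.4, 54.2 and 103 CPM in CT12, and 528, 530.0 and 792 CPM in NT12. Chilled libraries were all above normal ones at ZT24 and all below them at ZT12, so chilling turned the daily pattern round. The log2 changes were 3.20 (SE 0.29) at ZT24 and -2.95 (SE 0.29) at ZT12, a difference of 6.16 (SE 0.41, edgeR adjusted p = 2.71e-06). Next came OsR498G0407487300.01, with 217, 251 and 205 CPM in CT24, 37.6, 30.5 and 43.2 CPM in NT24, 47.9, 5.96 and 41.6 CPM in CT12, and 163, 156 and 148 CPM in NT12. Its groups did not overlap within either time, and CT12 replicate 2 was far below the other CT12 libraries. The difference was 4.89 (SE 0.72, edgeR adjusted p = 0.000821), and 4.39 without that library.

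The largest negative differences belonged to 2 abundant transcripts with like patterns. OsR498G0306485300.01 had 55.8, 56.9 and 48.1 CPM in CT24, 4098, 2761 and 3061 CPM in NT24, 25501, 17958 and 23193 CPM in CT12, and 777, 751 and 859.8 CPM in NT12. OsR498G0101476300.01 had 15.8, 12.3 and 7.89 CPM in CT24, 948, 620.0 and 914 CPM in NT24, 6687, 5489 and 5983 CPM in CT12, and 393, 266 and 362 CPM in NT12. In both, no group overlapped another, and the order from high to low was CT12, NT24, NT12 and CT24. OsR498G0101476300.01 fell by 6.11 on the log2 scale (SE 0.26) at ZT24 and rose by 4.15 (SE 0.25) at ZT12. Its difference was -10.26 (SE 0.36, edgeR adjusted p = 8.12e-08), and that of OsR498G0306485300.01 was -10.75 (SE 0.27, edgeR adjusted p = 1.05e-08). The ZT24/ZT12 difference of OsR498G0101476300.01 was -8.98 at 13 °C and 1.28 at 28 °C.

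For the ZT12 response without a matching one at ZT24, the rule asked for a called interaction and a ZT24 response bounded within 2-fold, which 1186 genes that rose and 316 that fell met. OsR498G0612507400.01 had 321, 333 and 281 CPM in CT24, 359, 297 and 336 CPM in NT24, 445, 365 and 466 CPM in CT12, and 12.4, 9 and 11.4 CPM in NT12. NT12 stood alone at a low level, and CT24 and NT24 overlapped. The log2 change was -0.09 at ZT24 (95% interval -0.41 to 0.24) and 5.28 at ZT12 (95% interval 4.96 to 5.61), and the difference of -5.37 had an edgeR adjusted p of 8.01e-08. OsR498G0408819400.01 had 277, 301 and 263 CPM in CT24, 314, 277 and 274 CPM in NT24, 2155, 2077 and 1857 CPM in CT12, and 73.8, 63.4 and 77.1 CPM in NT12. Here chilling at ZT12 carried the level above both ZT24 groups, whereas in OsR498G0612507400.01 it brought the level near theirs. Its log2 change was -0.04 at ZT24 (95% interval -0.31 to 0.23) and 4.83 at ZT12, and the difference was -4.87 (SE 0.17, edgeR adjusted p = 4.49e-08).

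Among falls at ZT12, OsR498G1221169700.01 had 11.1, 14.8 and 13.2 CPM in CT24, 19.5, 22.3 and 22.9 CPM in NT24, 7.78, 7.48 and 7.74 CPM in CT12, and 40.8, 40.2 and 42.7 CPM in NT12. No groups overlapped, and it fell at both times, by 0.73 on the log2 scale at ZT24 (edgeR adjusted p = 0.000581) while at ZT12 it fell by 2.43 (edgeR adjusted p = 8.92e-08). Novel00601 had 5.63, 4.54 and 8.25 CPM in CT24, 8.02, 5.41 and 5.37 CPM in NT24, 5.71, 7.56 and 6.12 CPM in CT12, and 43.1, 27.3 and 27.8 CPM in NT12. NT12 alone was high, and the other 3 groups overlapped. The differences in response were 1.70 (SE 0.17, edgeR adjusted p = 3.88e-05) for OsR498G1221169700.01 and 2.31 (SE 0.37, edgeR adjusted p = 0.00117) for Novel00601.

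With the times exchanged, 561 genes that rose and 545 that fell at ZT24 had a ZT12 response bounded within 2-fold. OsR498G1018343700.01 had 62.8, 78.3 and 79.0 CPM in CT24, 7.05, 7.59 and 10.7 CPM in NT24, 52.2, 36.8 and 52.0 CPM in CT12, and 39.3, 32.9 and 35.5 CPM in NT12. NT24 was low and apart, and CT12 and NT12 overlapped. Its log2 change was 3.12 at ZT24 and 0.39 at ZT12 (95% interval -0.01 to 0.79), a difference of 2.73 (SE 0.26, edgeR adjusted p = 2.8e-05). OsR498G0409312800.01 had 153, 161 and 178 CPM in CT24, 24.9, 23.2 and 20.5 CPM in NT24, 36.6, 50.1 and 39.9 CPM in CT12, and 46.0, 39.9 and 51.0 CPM in NT12. CT24 lay above and NT24 below every other library in both genes, and in the second CT12 and NT12 again overlapped. The difference was 2.95 (SE 0.20, edgeR adjusted p = 1.92e-06).

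Both genes named for a fall at ZT24 had their highest level in NT24. OsR498G1221989900.01 had 14.3, 11.9 and 11.1 CPM in CT24, 90.7, 82.4 and 74.0 CPM in NT24, 18.5, 16.1 and 21.2 CPM in CT12, and 27.7, 31.1 and 21.5 CPM in NT12. OsR498G0408527700.01 had 9.34, 9.54 and 15.5 CPM in CT24, 93.5, 61.8 and 65.4 CPM in NT24, 27, 18.7 and 13.2 CPM in CT12, and 16.4, 13.3 and 22 CPM in NT12. NT24 lay above all other libraries in both, and in the second gene the other 3 groups overlapped. The differences were -2.20 (SE 0.23, edgeR adjusted p = 5.11e-05) for OsR498G1221989900.01 and -2.87 (SE 0.42, edgeR adjusted p = 0.00063) for OsR498G0408527700.01. The first also fell at ZT12, by 0.53 on the log2 scale (edgeR adjusted p = 0.0198).

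Genes that responded alike were chosen by a bounded interaction and calls in the same direction at both times, which 1451 rising and 743 falling genes met. OsR498G0408569000.01 had 279.8, 291 and 385 CPM in CT24, 17.7, 20 and 14.1 CPM in NT24, 1639.7, 1207 and 1651 CPM in CT12, and 56.9, 97.2 and 57.8 CPM in NT12. Levels differed between the times at both temperatures, while the log2 changes were 4.20 at ZT24 and 4.41 at ZT12, and their difference had a 95% interval of -0.93 to 0.52. OsR498G1221006800.01 had 349, 406 and 351 CPM in CT24, 23.8, 20.8 and 21.3 CPM in NT24, 164, 214 and 129.9 CPM in CT12, and 8.58, 5.71 and 9.47 CPM in NT12. It rose by 4.07 at ZT24 and by 4.42 at ZT12 on the log2 scale, with a 95% interval of the difference of -0.98 to 0.28. On the linear scale the gains of these genes differed widely: OsR498G0408569000.01 gained 301 CPM at ZT24 and 1429 at ZT12, and OsR498G1221006800.01 gained 347 and 161.

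Among the falls that were alike, OsR498G0305744600.01 had 20.8, 24.5 and 27 CPM in CT24, 129, 136 and 168 CPM in NT24, 14.4, 15 and 13.7 CPM in CT12, and 99.6, 68.4 and 73.9 CPM in NT12. OsR498G0714121500.01 had 18.3, 20.1 and 15.9 CPM in CT24, 117, 90.8 and 127 CPM in NT24, 11.5, 8.41 and 11.2 CPM in CT12, and 61.8, 49.0 and 54.7 CPM in NT12. In both, chilled libraries lay below normal ones at each time without overlap, and levels were higher at ZT24 at either temperature. The 95% interval of the difference in response was -0.58 to 0.40 for OsR498G0305744600.01 and -0.72 to 0.29 for OsR498G0714121500.01. Under total counts the interval of OsR498G0305744600.01 reached 1.18, that of OsR498G0408569000.01 reached 1.28 and that of OsR498G1221006800.01 reached 1.07, so these 3 were no longer bounded within 2-fold. That of OsR498G0714121500.01 ran from 0.13 to 0.94 and stayed within the bound, with a called difference of 0.54 (edgeR adjusted p = 0.0351).

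**Figure D5:**
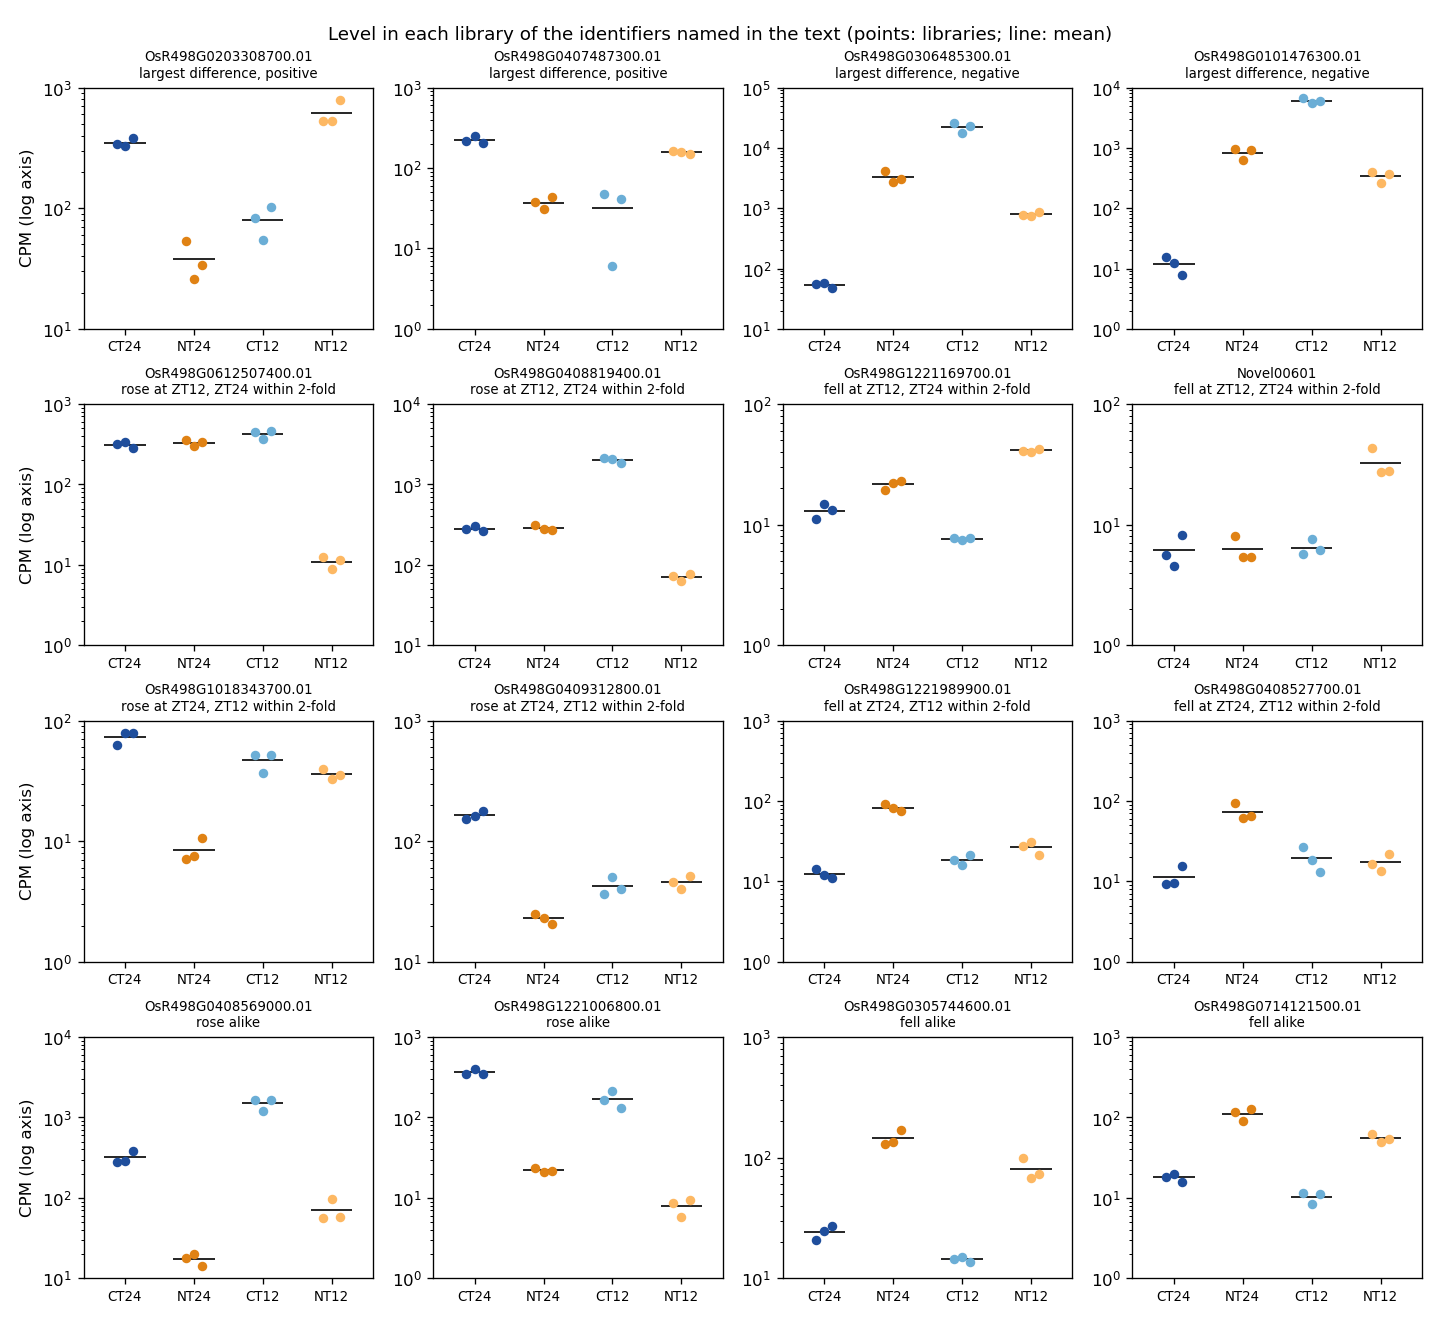
Level in each library, in CPM on a log axis, of the 16 identifiers named in the text; points are libraries, horizontal lines are means of 3, and groups run CT24, NT24, CT12, NT12. Rows show, from the top, the largest differences in response, responses at ZT12 with ZT24 bounded within 2-fold, the same with the times exchanged, and responses that were alike.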

How the data were processed

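RNA from the above-ground parts of seedlings was sequenced in 12 libraries made with the NEBNext Ultra RNA kit, per the labels' protocols. The authors deposited raw counts per identifier, whole numbers without normalization. The submitters' processing notes name HISAT2 2.0.4. Counting tool, genome build, annotation and strand setting: not given in the sources used here. Counts of near-identical genes, or of genes that overlap, are therefore uncertain. No line lacked an identifier.

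The analysis used R 4.3.3 and edgeR 4.0.16. Its expression filter (minimum count 10, minimum total 15) kept 24700 genes with 99.98% of the counts. After TMM scaling, 1 quasi-likelihood fit of 4 group means covered all 12 libraries, without a block, with 8 residual degrees of freedom, and 5 contrasts were tested with Benjamini-Hochberg adjustment. SEs and 95% intervals are Wald values from that fit with its moderated dispersion. The bound for alike responses was 1 on the log2 scale. Group orders and library differences used log2 CPM (prior count 2). Libraries of 1 group differed by a chi-square per gene of 25.5 to 139 over genes with at least 20 counts, so each was kept as a separate sample. The model and intervals were tested on simulated data with changes placed in CT24. Of 100 genes changed 2-fold, 5 were called, and of 100 changed 4-fold, 78 were called and 19 passed the glmTreat test. Of 24104 unchanged genes, 5 were called. The 95% intervals held the true value for 99% of the 2-fold, 93% of the 4-fold and 95.1% of the unchanged genes. Most differences near 2-fold were therefore missed in that simulation. It changed only these genes among 24304, whereas 22.2% of genes were called in the data. The Benjamini-Hochberg adjustment was therefore stricter in the simulation, and its shares of called genes do not carry over to the data.

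Identifiers were named as the largest 2 in each direction for the interaction, for responses at 1 time with the other bounded within 2-fold, and for alike responses, among genes averaging at least 5 CPM in each group. For the interaction all 9 library differences at ZT24 also had to lie beyond those at ZT12. Members, lists and rules were chosen with earlier results of these data known. Alternatives were 3 other scalings, 2 filters, DESeq2 1.42.0, limma 3.58.1 (voom), a replicate block and leaving out each library.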

Additional observations from a re-analysis of the deposited data

Results flagged for a closer look

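The response to chilling differed between ZT24 and ZT12 by the test of the interaction itself for 5486 genes, which is the comparison of the study's design. Among the named identifiers, the difference in log2 response (ZT24 minus ZT12) was 6.16 for OsR498G0203308700.01 and 4.89 for OsR498G0407487300.01, whose CT12 libraries spread from 5.96 to 47.9 CPM. It was -10.75 for OsR498G0306485300.01 and -10.26 for OsR498G0101476300.01.

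With one response bounded within 2-fold, the difference was -5.37 for OsR498G0612507400.01, -4.87 for OsR498G0408819400.01, 1.70 for OsR498G1221169700.01 and 2.31 for Novel00601, all of which changed at ZT12. It was 2.73 for OsR498G1018343700.01, 2.95 for OsR498G0409312800.01, -2.20 for OsR498G1221989900.01 and -2.87 for OsR498G0408527700.01, which changed at ZT24. All 12 were called in the interaction, and remained so under each of 20 alternatives.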

How the results depend on the processing

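Scaling by total counts moved 6 of the 7 counts over genes by more than 1.5 times: calls in the interaction to 10591 (9279 more positive and 1312 more negative), differences beyond 2-fold to 2332, bounded responses to 4251 and genes called in opposite directions to 1917. With limma-voom, differences beyond 2-fold numbered 782. The cause was not tested. All other alternatives kept these counts within 1.5 times, and DESeq2 called 6821. With 1 library left out, calls ranged from 4260 to 7124, more positive from 1741 to 3088, more negative from 2477 to 4036, beyond 2-fold from 1125 to 1627, bounded from 6592 to 7469, opposite from 747 to 1134, and opposite in sign on the linear scale from 181 to 325. Of the 12 libraries, only leaving out CT12 replicate 2 raised the number of calls.

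The numbers of the replicates did not pair the libraries: the correlation of deviations from the group means between libraries with the same number ran from -0.444 to 0.285, and 0 of 12 libraries correlated best with their own number. Between libraries of different groups and numbers it ran from -0.427 to 0.44. The highest values were 0.44 for NT24 replicate 1 with CT12 replicate 2 and 0.434 for NT12 replicate 1 with NT24 replicate 3. All pairs among NT12 replicate 1, NT24 replicate 3, CT12 replicate 1 and CT24 replicate 2 correlated positively, from 0.249 to 0.434. So did all pairs among NT12 replicate 3, NT24 replicate 1, CT12 replicate 2 and CT24 replicate 3, from 0.168 to 0.44. Every correlation between these sets was negative. The sets were picked from the correlations themselves, and structure shared across groups under other numbers was not tested. With the replicate number as a block the calls numbered 4521 (1851 positive, 2670 negative), and 1151 lay beyond 2-fold; no interaction call of a named identifier changed.

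The sign of the difference turned for identifiers that responded alike. Under total counts it was 0.55 for OsR498G0408569000.01, 0.37 for OsR498G1221006800.01, 0.65 for OsR498G0305744600.01 and 0.54 for OsR498G0714121500.01. For OsR498G0305744600.01 it was 0.09 under upper-quartile scaling and 0 to 0.05 without NT12 replicate 2 or 3, NT24 replicate 3 or CT24 replicate 1, within a range of -0.24 to 0.05 over the libraries left out. Genes averaging under 1 CPM had a median SE of 1.22 on the log2 scale.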
